A study of Mus musculus with 15 samples.

Results

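The miRNAs described here are the 5 mature 5p miRNAs of the mouse miR-99/100 and miR-125 families, mmu-miR-99a-5p, mmu-miR-99b-5p, mmu-miR-100-5p, mmu-miR-125a-5p and mmu-miR-125b-5p (the species prefix is left out below). They were chosen by name, as 5 of the 1994 entries of the miRNA and piRNA count table, and all 5 passed the filter on low counts that left 1435 entries for testing. Small RNA was sequenced from brain microglia sorted as Cd11b and Cd45 positive cells, in 15 libraries of 5 mice per group. All mice carried the label 5xFAD as strain and had been injected with the amyloid-binding dye Methoxy-X04 (Me-X04). The groups were Me-X04-negative microglia of wild-type (WT) mice labelled 2 months old, and Me-X04-negative (TG Me-X04-) and Me-X04-positive (TG Me-X04+) microglia of 5xFAD transgenic mice labelled 6 months old. 5xFAD mice carry human transgenes driven by the neuronal Thy1 promoter and deposit amyloid, and the TG Me-X04+ cells are those holding dyed amyloid. Each transgenic mouse gave 1 library of either kind, and the pair carries its number. The study's methods give other ages than the labels, and in either comparison with WT, genotype and labelled age cannot be told apart.

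A miRNA guides Argonaute to messenger RNAs that pair with its seed, bases 2 to 8 from the 5′ end, and thereby lowers their translation and stability. Vertebrate genomes keep the miR-99/100 and miR-125 families together in clusters with a let-7 miRNA between them. The miR-125 family is related to lin-4 of Caenorhabditis elegans and is known to repress Tnfaip3, an inhibitor of NF-kB signalling, while miR-99 and miR-100 are known to repress Mtor. miR-99a and miR-125b are known as miRNAs abundant in adult microglia.

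The 5 sequences are shown because they fall into only 2 seeds, marked in capitals, and because the bases outside the seed decide how well the counts of close relatives can be separated. They are printed 5′ to 3′ from RefSeq (GRCm38.p6).
miR-99a-5p: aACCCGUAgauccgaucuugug
miR-99b-5p: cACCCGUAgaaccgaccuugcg
miR-100-5p: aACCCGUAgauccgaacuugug
miR-125a-5p: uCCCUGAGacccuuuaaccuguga
miR-125b-5p: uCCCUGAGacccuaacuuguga
The seed ACCCGUA occurred in 3 of 1679 mature miRNAs of the RefSeq table (0.179%), all of them members, and the seed CCCUGAG in 5 (0.298%). Counted from 1 at the 5′ end, miR-100-5p differed from miR-99a-5p by U16A alone, so a read with an error or an edit at that base can be given to the wrong one, and miR-100-5p, by far the rarer of the pair, is uncertain for that reason. miR-99b-5p differed from miR-99a-5p by A1C, U11A, U16C and U21C. miR-125a-5p is 24 bases long against 22 for miR-125b-5p, and the pair shared the first 13 and the last 5 bases.

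The members came from 3 clusters, all on the plus strand (GRCm38, GENCODE vM21). On chromosome 16, Mir99a (chr16:77598936-77599000) was followed after 656 bases by Mirlet7c-1 (chr16:77599657-77599750) and after 47272 bases by Mir125b-2 (chr16:77646273-77646343), all in introns of the non-coding host gene Mir99ahg. On chromosome 9, Mir100 (chr9:41531425-41531504) lay 5211 bases before Mirlet7a-2 (chr9:41536716-41536811) and 50421 bases before Mir125b-1 (chr9:41581926-41582002), in introns of the non-coding gene 3110039I08Rik, and Mir125b-1 also lay in an exon of the sense-intronic transcript Gm28119. The chromosome 17 cluster was the compact one. There Mir99b (chr17:17830188-17830257) lay 94 bases before Mirlet7e (chr17:17830352-17830444) and 554 bases before Mir125a (chr17:17830812-17830879), in introns of Spaca6 except that Mir125a fell in an exon of 1 of the 3 transcripts that cover it. Mature miR-125b-5p is identical from Mir125b-1 and Mir125b-2, so its count sums the chromosome 16 and chromosome 9 clusters, while miR-99b-5p and miR-125a-5p stand for chromosome 17.

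Libraries held 21429882 to 26434297 reads, and the UMI counts (unique molecular identifiers, which count a tagged molecule once) assigned to miRNAs and piRNAs summed to 424536 to 1192832 for WT, 405351 to 682553 for TG Me-X04- and 240027 to 372998 for TG Me-X04+. Levels are given in CPM (counts-per-million) after TMM scaling (trimmed mean of M-values), and the TMM factors differed between the groups, with means of 0.72 for WT, 0.83 for TG Me-X04- and 1.81 for TG Me-X04+. TG Me-X04+ replicate 3 stood apart with a factor of 2.92 and miRNA reads at 7.39% of its total, against 11.1% to 13.6% in the rest of its group. WT replicates 4 and 5 stood apart with mRNA reads at 0.487% and 0.422%, against 0.108% to 0.136% in the other WT libraries, and WT replicate 5 was the deepest. All 5 microglia and myeloid markers (miR-142a-3p, miR-142a-5p, miR-223-3p, miR-146a-5p and miR-342-3p) were detected in every group, with summed levels of 153904 to 264882 CPM for WT, 124336 to 270763 CPM for TG Me-X04- and 34990 to 71585 CPM for TG Me-X04+. In bulk libraries, fewer cells of a type and less of a miRNA per cell cannot be told apart.

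mmu-miR-125b-5p was the most abundant member, ranking 8 to 10 among all miRNAs in every library. It measured 27654, 40614, 38654, 29793 and 55034 CPM for WT replicates 1 to 5, 44009, 24999, 18090, 29142 and 36400 CPM for TG Me-X04-, and 10927, 12888, 5635, 9809 and 12788 CPM for TG Me-X04+. All 5 TG Me-X04+ libraries lay below all libraries of the other groups, whose values overlapped.

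mmu-miR-125a-5p, of the same seed, ranked 10 to 15. Its levels were 11678, 16631, 19874, 15876 and 27592 CPM for WT, 19357, 13681, 7816, 11817 and 20231 CPM for TG Me-X04-, and 7624, 10983, 3304, 6072 and 10192 CPM for TG Me-X04+. TG Me-X04+ lay wholly below WT but overlapped TG Me-X04-, whose replicate 3 was the low one.

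mmu-miR-99a-5p ranked 23 to 40. It was measured at 2672, 2987, 3903, 3821 and 9063 CPM for WT, 4531, 2585, 1887, 2541 and 2499 CPM for TG Me-X04-, and 999, 1466, 711, 849 and 1116 CPM for TG Me-X04+. WT replicate 5 and TG Me-X04- replicate 1 stood above the rest of their groups, and no TG Me-X04+ library reached any other library.

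mmu-miR-99b-5p ranked 38 to 52, with 1334, 1628, 1843, 1728 and 2808 CPM for WT, 2098, 1305, 880, 1652 and 1651 CPM for TG Me-X04-, and 684, 1075, 431, 651 and 998 CPM for TG Me-X04+. As for its cluster neighbour miR-125a-5p, TG Me-X04+ overlapped TG Me-X04- through replicate 3 of the latter and lay below WT.

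mmu-miR-100-5p was rare, ranking 243 to 1095. Its UMI counts were 33, 30, 29, 34 and 56 for WT, 26, 33, 31, 22 and 24 for TG Me-X04-, and 11, 17, 40, 15 and 25 for TG Me-X04+. These corresponded to 93.5, 91.4, 69.0, 70.4 and 85.0 CPM, to 73.8, 56.5, 64.4, 52.1 and 59.3 CPM, and to 33.0, 44.7, 51.4, 30.5 and 45.6 CPM. Counting error alone is wide at this depth, with an exact Poisson 95% interval of 5.49 to 19.7 around 11 UMIs and of 42.3 to 72.7 around 56. The other members had at least 228 UMIs in every library, and no member was at 0 in any.

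**Figure D1:**
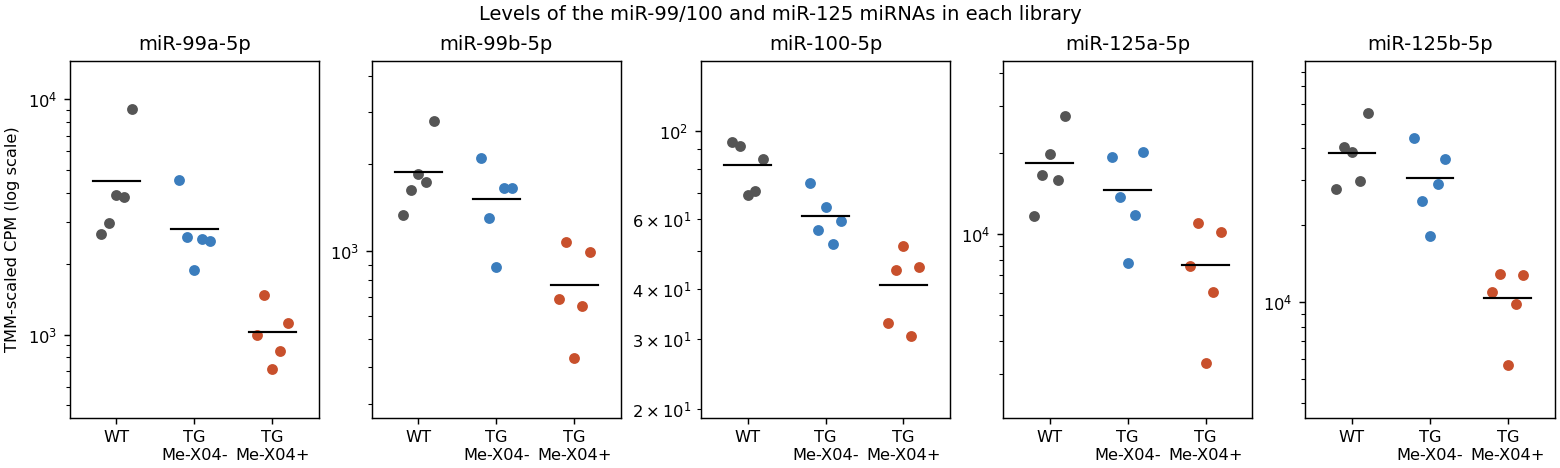
Level of each member in TMM-scaled CPM (log axis, scaled separately in each panel) in WT, TG Me-X04- and TG Me-X04+, with points for replicates 1 to 5 from left to right and a line at the group mean. miR-125b-5p lies between 5635 and 12888 CPM for TG Me-X04+ and between 18090 and 55034 CPM in the other groups, and the low TG Me-X04+ point of 4 members is replicate 3.

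In mean CPM the order was miR-125b-5p, miR-125a-5p, miR-99a-5p, miR-99b-5p and miR-100-5p in each group. miR-125b-5p averaged 38350 ± 10854 CPM for WT, 30528 ± 10042 CPM for TG Me-X04- and 10409 ± 2968 CPM for TG Me-X04+ (SD, n = 5). miR-125a-5p averaged 18330 ± 5944, 14580 ± 5219 and 7635 ± 3120 CPM, and the ranges of these neighbours in the order overlapped in TG Me-X04- and TG Me-X04+ but not in WT, although miR-125b-5p was the higher of the pair within every library. Counts of different miRNAs also carry the bias of ligation and are compared here as counted. miR-99a-5p (4489 ± 2611, 2809 ± 1004 and 1028 ± 289 CPM) and miR-99b-5p (1868 ± 558, 1517 ± 454 and 768 ± 265 CPM) also overlapped in TG Me-X04-, TG Me-X04+ and WT, although miR-99a-5p was the higher of the pair within every library. Together the 5 members took 4.38% ± 0.66 of the miRNA and piRNA UMIs in WT, 3.83% ± 0.38 for TG Me-X04- and 3.25% ± 0.38 for TG Me-X04+. Of the members' own UMIs, miR-125b-5p made up 61.1% ± 3.36 for WT, 61.7% ± 2.41 for TG Me-X04- and 53.1% ± 3.23 for TG Me-X04+, and miR-125a-5p 28.9% ± 2.03, 29.3% ± 3.19 and 37.4% ± 3.75.

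Microglia that carried dyed amyloid were compared with those of the same mice that did not, the comparison that asks which miRNAs differ with uptake of amyloid. miR-125b-5p, miR-99a-5p and miR-99b-5p were lower in TG Me-X04+ after TMM scaling, and miR-125a-5p and miR-100-5p did not pass the test. The 3 of 5 members called lower stand beside 8.57% of all 1435 entries called lower, 1.39% called higher and 9.97% called in either direction (edgeR quasi-likelihood F-test, Benjamini-Hochberg adjusted p under 0.05 and a log2 fold change of at least 0.7 in size). The abundant entries are the nearer background, since 46 of the 59 entries that averaged a log2 CPM of 10 or above, every member but miR-100-5p among them, were called lower (78%), with a median log2 fold change of -1.32, against 3 of these 4 members. The log2 fold change was -1.55 (SE 0.30, adjusted p = 0.00164, edgeR) for miR-125b-5p, a 2.93-fold lower level. It was -1.45 (SE 0.32, edgeR adjusted p = 0.00468) for miR-99a-5p and -0.98 (SE 0.28, edgeR adjusted p = 0.0236) for miR-99b-5p. miR-125a-5p had -0.93 (SE 0.33, edgeR adjusted p = 0.0862), and miR-100-5p had -0.55 (SE 0.22, edgeR adjusted p = 0.158). Every member had the lower CPM in TG Me-X04+ in 5 of 5 mice. The median over the members was -0.98, against 0.17 over all entries. In 3 of 5 members (miR-99a-5p, miR-100-5p and miR-125b-5p) every TG Me-X04+ library lay below every TG Me-X04- library in CPM, as in 7.46% of all entries. Such shares, here and below, were counted over all entries and not among the abundant ones, the nearer background.

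With the mouse as a replicate block, miR-125a-5p was also called (log2 fold change -0.99, edgeR adjusted p = 0.00717), which made 4 of 5 members lower, and so it was without TG Me-X04- replicate 3 (-1.18, edgeR adjusted p = 0.0152). The call of miR-99b-5p was the weak one, lost without TG Me-X04- replicate 1 (-0.84, edgeR adjusted p = 0.0845), 4 (0.0551) or 5 (0.0588) and without TG Me-X04+ replicate 1 (0.0625) or 4 (0.0657). Without TG Me-X04+ replicate 3, the library that stood apart, 3 members were again called.

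The scaling decided these calls. Scaled to library size, that is in CPM of the miRNA and piRNA UMIs without TMM factors, no member was called and the median log2 fold change of all entries moved from 0.17 to 1.28, with 484 entries called higher and 16 lower in place of 20 and 123. On that scale miR-125b-5p had a log2 fold change of -0.45 (edgeR adjusted p = 0.0033, short of the size threshold), miR-99a-5p -0.33, miR-99b-5p 0.11, miR-125a-5p 0.13 and miR-100-5p 0.60, so the sign of the last 3 turned. Under either scaling each member's fold change lay below the median of all entries. miR-125b-5p was at 21380 to 26222 CPM for TG Me-X04- and 15177 to 18962 CPM for TG Me-X04+ on that scale, with no overlap, as in 2.09% of all entries. On that scale miR-99a-5p was lower in 5 of 5 mice, miR-99b-5p in 2, miR-125a-5p in 1 and miR-100-5p in 0.

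TG Me-X04- microglia were compared with WT to see what differs without amyloid uptake. No member was called in this comparison, in which 0.139% of all entries were called (2 higher, 0 lower, with 54 at an unadjusted p under 0.05, and 2 called by DESeq2). The log2 fold changes of the members ran from -0.68 for miR-99a-5p (SE 0.32) to -0.30 for miR-99b-5p (SE 0.27), each with an edgeR adjusted p of 0.998. Their median was -0.33, against 0.03 over all entries and -0.27 over the 59 abundant ones. The CPM values of every member overlapped between these groups, and those of 0.0697% of all entries lay wholly below WT. Without WT replicate 5 the miR-99a-5p value was -0.26.

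TG Me-X04+ against WT spanned the 2 labels, genotype with age and amyloid uptake, at once. All 5 members were called lower, beside 11.7% of all entries called lower, 3.69% called higher and 15.4% called in either direction, and beside 48 of the 59 abundant entries (81.4%). miR-99a-5p had a log2 fold change of -2.13 (SE 0.33, edgeR adjusted p = 7.88e-05), a 4.37-fold lower level, and miR-125b-5p one of -1.88 (SE 0.30, edgeR adjusted p = 0.000132). Their order rested on WT replicate 5, without which the values were -1.71 and -1.72. The chromosome 17 miRNAs had smaller fold changes, -1.29 for miR-99b-5p (SE 0.28, edgeR adjusted p = 0.00249) and -1.26 for miR-125a-5p (SE 0.33, edgeR adjusted p = 0.0104). miR-100-5p had -0.97 (SE 0.22, edgeR adjusted p = 0.00356). The median over the members was -1.29, against 0.27 over all entries and -1.67 over the 59 abundant ones. The CPM values of all 5 members did not overlap with WT, as in 9.9% of all entries.

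Of these 5 calls, miR-125a-5p was lost without WT replicates 4 and 5 (-1.07, edgeR adjusted p = 0.0681) and miR-100-5p with read counts in place of UMIs (-0.44, edgeR adjusted p = 1.00). Scaled to library size, the median of all entries was 1.65 and miR-99a-5p alone was called (-0.80). miR-125b-5p then had -0.63 (edgeR adjusted p = 0.000138, short of the size threshold), miR-125a-5p -0.04 and miR-99b-5p -0.03, and miR-100-5p turned to 0.37. On that scale TG Me-X04+ lay wholly below WT for miR-99a-5p and miR-125b-5p, as for 2.93% of all entries. The 3 comparisons share groups, so their fold changes are not independent of each other.

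**Figure D2:**
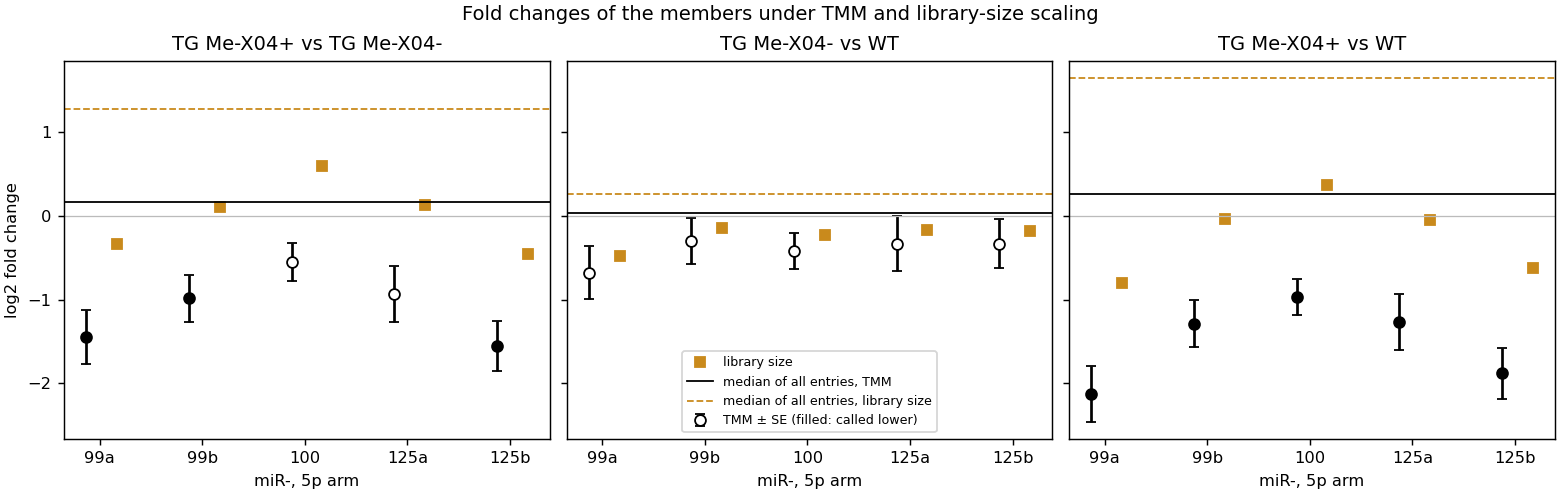
Log2 fold change of each member in the 3 comparisons, as circles with SE under TMM scaling (filled where called lower) and as squares under library-size scaling, with lines at the median of all 1435 entries under either scaling. Against TG Me-X04- the TMM values run from -1.55 to -0.55 and the library-size values from -0.45 to 0.60, and in every panel the members lie below the median line of their own scaling.

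Ratios of members within a library do not depend on any scaling between libraries, so they were used to set the seeds and the a- and b-members against each other (two-sided exact permutation tests of the mean log2 ratio, 5 against 5 libraries, adjusted over 18 tests, with 0.00794 the smallest p the design allows). The seeds were compared first. In the chromosome 16 pair, miR-125b-5p also counts the chromosome 9 locus, so its ratio to miR-99a-5p does not stand for a single cluster. miR-125b-5p outnumbered miR-99a-5p by 6.07 to 13.6 times for WT, 9.58 to 14.6 times for TG Me-X04- and 7.93 to 11.6 times for TG Me-X04+. The mean log2 ratio differed by -0.12 between TG Me-X04+ and TG Me-X04- (exact permutation p = 0.492, adjusted 0.805) and by 0.12 between TG Me-X04+ and WT (exact permutation p = 0.627, adjusted 0.940). In the chromosome 17 pair, miR-125a-5p outnumbered miR-99b-5p by 8.75 to 10.8 times for WT, 7.15 to 12.3 times for TG Me-X04- and 7.67 to 11.1 times for TG Me-X04+. That mean log2 ratio was 3.28 ± 0.12 for WT, 3.24 ± 0.29 for TG Me-X04- and 3.27 ± 0.21 for TG Me-X04+ (SD, n = 5), with differences of 0.03 or less in size where TG Me-X04+ was compared (exact permutation, adjusted p = 0.964 and 0.983). The group ranges of both seed ratios overlapped in every comparison. Summed over the members, the ratio of the miR-125 seed to the miR-99/100 seed was 6.91 to 12.2 for WT, 9.15 to 13.5 for TG Me-X04- and 7.49 to 10.8 for TG Me-X04+.

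The third seed pair, miR-125b-5p over miR-100-5p, had a lower mean log2 ratio in TG Me-X04+ by 0.95 against TG Me-X04- and by 0.88 against WT, neither of which passed (exact permutation p = 0.0317 and 0.0238, adjusted 0.0816 for both). The ratio was lower in TG Me-X04+ in 5 of 5 mice, and its groups overlapped. It rests on the rare miR-100-5p, and TG Me-X04+ replicate 3, with 40 UMIs of miR-100-5p, had a ratio of 110 against 280 to 331 in the rest of its group. Without WT replicate 1 the difference from WT passed (-1.04, exact permutation, adjusted p = 0.0476), and without TG Me-X04- replicate 3 that from TG Me-X04- did (-1.14, exact permutation, adjusted p = 0.0357). Its miR-125b-5p part also sums 2 loci. miR-99a-5p over miR-100-5p, of the same seed, likewise did not pass against TG Me-X04- (-0.84, exact permutation p = 0.0238, adjusted 0.0816) or WT (-1.01, exact permutation p = 0.0397, adjusted 0.0893), the former passing without TG Me-X04- replicate 3 (-0.98, exact permutation, adjusted p = 0.0357).

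The a- and b-members did part. miR-125a-5p over miR-125b-5p was 0.422, 0.409, 0.514, 0.533 and 0.501 for WT, 0.44, 0.547, 0.432, 0.405 and 0.556 for TG Me-X04-, and 0.698, 0.852, 0.586, 0.619 and 0.797 for TG Me-X04+. Every TG Me-X04+ library lay above all 10 others, and the ratio rose in 5 of 5 mice. The mean log2 ratio was higher in TG Me-X04+ by 0.58 against TG Me-X04- and by 0.57 against WT (exact permutation p = 0.00794, adjusted 0.0476 for both), while TG Me-X04- and WT differed by -0.0039 (exact permutation p = 0.992). These p-values are the smallest the design allows, and within mice the sign-flip test over 5 pairs cannot go below 0.0625, the value it gave. Leaving out single libraries kept the difference between 0.50 and 0.64, but its adjusted p rose to between 0.0571 and 0.0952 (exact permutation) without TG Me-X04- replicate 1, 3 or 4 in the former comparison, without WT replicate 1, 2 or 5 in the latter, and without TG Me-X04+ replicate 2 or 5 in both.

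miR-99a-5p over miR-99b-5p moved in the other direction, so that against WT the chromosome 17 member of each a- and b-pair gained on its partner. The ratio was 2.00, 1.84, 2.12, 2.21 and 3.23 for WT, 2.16, 1.98, 2.14, 1.54 and 1.51 for TG Me-X04-, and 1.46, 1.36, 1.65, 1.30 and 1.12 for TG Me-X04+. TG Me-X04+ lay wholly below WT, with a difference of -0.71 in mean log2 ratio (exact permutation p = 0.00794, adjusted 0.0476). Its adjusted p rose to 0.0714 or 0.0952 (exact permutation) without WT replicate 2 or 5 or TG Me-X04+ replicate 2 or 5, with differences of -0.78, -0.57, -0.71 and -0.63. Against TG Me-X04- the difference was -0.43, lower in 5 of 5 mice, with overlapping groups, and did not pass (exact permutation p = 0.0317, adjusted 0.0816). TG Me-X04- and WT differed by -0.28 (exact permutation p = 0.190, adjusted 0.381). The 3 ratio differences that passed were lost with read counts in place of UMIs, where their sizes were 0.58, 0.58 and -0.71 (adjusted p = 0.0714 by the exact permutation test), and the 2 against WT also without WT replicates 4 and 5 (0.66 and -0.53, adjusted p = 0.0952 by the exact permutation test), where fewer arrangements are possible.

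**Figure D3:**
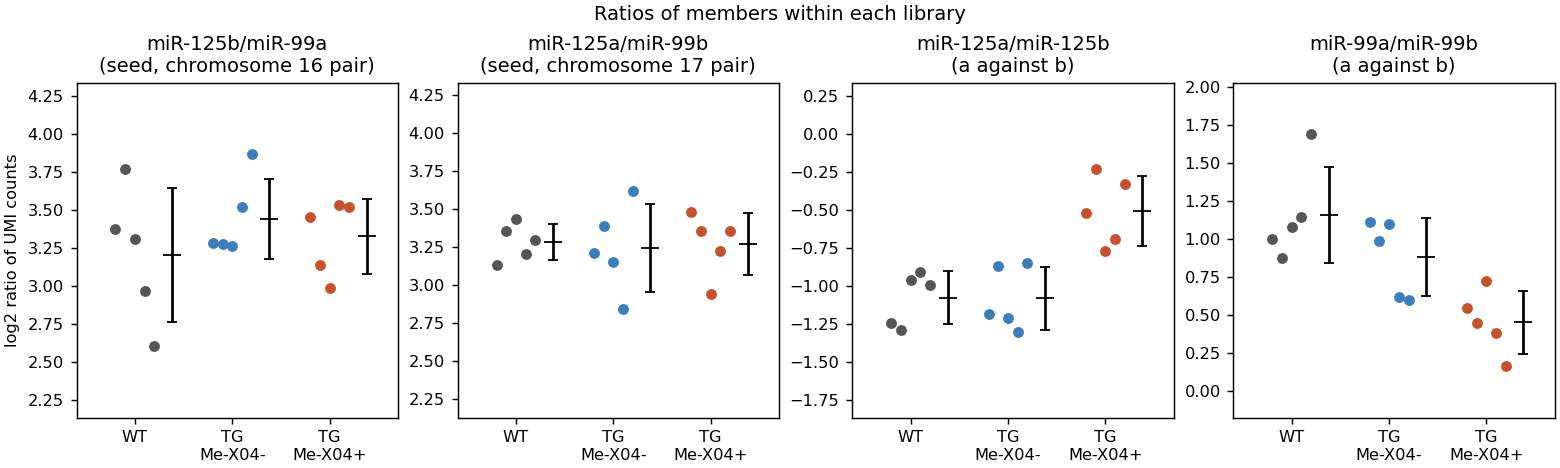
Log2 ratio of UMI counts within each library for 2 seed ratios and 2 ratios of a- to b-members, with points for replicates 1 to 5 from left to right and bars for the group mean and SD (each panel spans the same log2 range). The seed ratios overlap in all groups, whereas miR-125a-5p over miR-125b-5p has a mean of -0.51 for TG Me-X04+ against -1.08 in either other group. In the panel named for chromosome 16, miR-125b-5p also counts the chromosome 9 locus.

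The other arms of the precursors were rare. Of 6, miR-100-3p had 10 UMIs in a single library and was not tested. Beside 8.57% of all entries, 1 of the 5 tested was called lower in TG Me-X04+ against TG Me-X04-. This was miR-125b-2-3p, the arm made only from the chromosome 16 precursor, with a log2 fold change of -0.94 (SE 0.23, edgeR adjusted p = 0.0107) and -1.36 against WT (SE 0.23, edgeR adjusted p = 0.000233), which became 0.18 and -0.07 scaled to library size. miR-125b-1-3p, made only from the chromosome 9 precursor, had 0.28 (SE 0.34, edgeR adjusted p = 0.952) and, against WT, 0.66 (SE 0.34, edgeR adjusted p = 0.273), and was called higher against WT only without WT replicate 5 (1.05, edgeR adjusted p = 0.0377), without WT replicates 4 and 5 (1.27), with 10 UMIs required in every library (0.80) or scaled to library size or to all RNA classes (2.09 and 2.00). Scaled to library size, 0 of the 5 arms were called lower against TG Me-X04- and 3 higher, namely miR-125b-1-3p (1.41, edgeR adjusted p = 0.00803), miR-99a-3p (1.09, edgeR adjusted p = 0.0175) and miR-99b-3p (0.87, edgeR adjusted p = 0.0358), and against WT the same 3 were called higher. On that scale 484 of all 1435 entries were called higher against TG Me-X04- and 644 against WT. These arms are shown because, unlike the shared 5p sequence, they tell the miR-125b precursors apart.
miR-125b-1-3p: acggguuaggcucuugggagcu
miR-125b-2-3p: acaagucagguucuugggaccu
miR-125b-1-3p had 21, 15, 40, 52 and 127 UMIs for WT, 43, 95, 62, 49 and 56 for TG Me-X04-, and 21, 46, 107, 120 and 132 for TG Me-X04+. miR-125b-2-3p had 74, 63, 111, 94 and 201 UMIs for WT, 91, 89, 61, 68 and 73 for TG Me-X04-, and 34, 40, 46, 44 and 57 for TG Me-X04+. Their ratio, chosen after its values were seen and given without a test, was 0.284, 0.238, 0.360, 0.553 and 0.632 for WT, 0.473, 1.07, 1.02, 0.721 and 0.767 for TG Me-X04-, and 0.618, 1.15, 2.33, 2.73 and 2.32 for TG Me-X04+. TG Me-X04+ replicates 3, 4 and 5 stood above every other library, and replicates 1 and 2 lay within the range of TG Me-X04- or just above it.

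**Figure D4:**
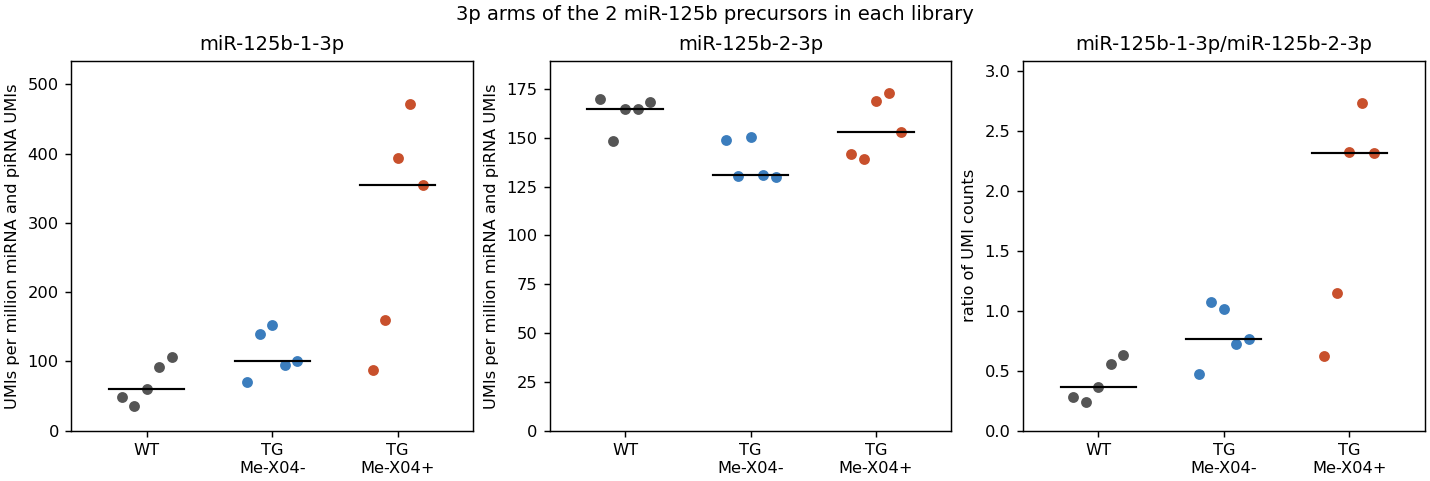
CPM without TMM factors (UMIs per-million miRNA and piRNA UMIs) of the 3p arms of the 2 miR-125b precursors, and the ratio of their UMI counts, in each library (points for replicates 1 to 5 from left to right, line at the median). The ratio is 0.238 to 0.632 for WT, 0.473 to 1.07 for TG Me-X04- and 0.618 to 2.73 for TG Me-X04+, and miR-125b-2-3p lies between 130 and 173 CPM in all 15 libraries.

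With TMM scaling the remaining arms did not pass. miR-99a-3p had log2 fold changes of -0.07 (edgeR adjusted p = 0.998) against TG Me-X04- and -0.40 (0.510) against WT, and miR-99b-3p -0.27 (0.831) and -0.45 (0.304). The 5p arm of miR-99a outnumbered its 3p arm by 24.1 to 67.1 times for WT, 17.8 to 63.1 times for TG Me-X04- and 8.38 to 14.2 times for TG Me-X04+. For miR-125b, the 5p arm outnumbered both 3p arms together by 98.5 to 171 times for WT, 70.8 to 116 times for TG Me-X04- and 28.6 to 66.2 times for TG Me-X04+. In both, TG Me-X04+ lay below all other libraries. For miR-99b the groups overlapped, at 13.5 to 28.1 times for WT, 10.3 to 26.7 times for TG Me-X04- and 5.98 to 15.2 times for TG Me-X04+. The 3p arms behind these ratios had 15 to 201 UMIs a library, where the smallest value above 0 was 10, and these ratios were not tested.

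The let-7 miRNAs that lie between the members belong to a family known to restrain growth, and let-7c-5p held rank 1 or 2 in every library. None of the 6 let-7 arms of the clusters was called in TG Me-X04+ against TG Me-X04-, with -0.97 for let-7c-5p (edgeR adjusted p = 0.0684), -0.91 for let-7a-5p (0.0903) and -0.53 for let-7e-5p (0.483). Scaled to library size, let-7c-1-3p (1.54, edgeR adjusted p = 0.00556) and let-7a-2-3p (1.29, edgeR adjusted p = 0.0133) were called higher in that comparison, from 0.39 and 0.20 with TMM scaling, and with all RNA classes they were at 1.33 and 1.104, again called. Beside them, 484 of all 1435 entries were called higher scaled to library size and 410 with all RNA classes. With the replicate block let-7a-5p (-1.02, edgeR adjusted p = 0.00509) and let-7c-5p (-1.06, edgeR adjusted p = 0.00327) were called. Against WT, 2 of 6 were called lower, let-7c-5p (-0.998, edgeR adjusted p = 0.0398) and let-7a-5p (-0.99, edgeR adjusted p = 0.0442), beside 11.7% of all entries and 81.4% of the 59 abundant ones. let-7e-5p of chromosome 17 had -0.62 (edgeR adjusted p = 0.250). Scaled to library size, let-7c-5p and let-7a-5p turned to 0.19 and 0.18. Their calls against WT were lost without any of WT replicates 1, 2, 3 and 5 or TG Me-X04+ replicates 4 and 5, that of let-7c-5p also without TG Me-X04+ replicate 2 and that of let-7a-5p without WT replicate 4, with edgeR adjusted p from 0.0516 to 0.125 in these sets. Against TG Me-X04-, leaving out TG Me-X04- replicate 3 gave calls for let-7a-5p (-1.14, edgeR adjusted p = 0.0209) and let-7c-5p (-1.17, edgeR adjusted p = 0.0201). let-7a-5p and let-7c-5p are also made at other loci, so among these 5p arms only let-7e-5p speaks for a single cluster. Within that cluster miR-125a-5p outnumbered let-7e-5p by 1.94 to 4.68 times for WT, 2.15 to 3.07 times for TG Me-X04- and 1.47 to 2.64 times for TG Me-X04+.

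A relative outside the 3 clusters also fell in TG Me-X04+.
miR-351-5p: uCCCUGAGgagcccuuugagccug
miR-351-5p, of chromosome X, is shown because it holds the miR-125 seed outside the clusters. It measured 731, 960, 1184, 941 and 1565 CPM for WT, 965, 653, 521, 687 and 707 CPM for TG Me-X04-, and 162, 244, 161, 171 and 204 CPM for TG Me-X04+. TG Me-X04+ lay wholly below the other groups, which overlapped. Its log2 fold change was -1.91 against TG Me-X04- (SE 0.24, edgeR adjusted p = 3.84e-05) and -2.52 against WT (SE 0.24, edgeR adjusted p = 7.52e-07), and it was called scaled to library size too (-0.76 and -1.18). These fold changes were larger in size than those of any member, a difference that was not tested. miR-6367 and miR-6394, the other miRNAs with this seed, were rare and were not called in any comparison.

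Entries that had 10 UMIs or more throughout were ranked by how closely their centred log2 CPM followed each member over the 15 libraries, measured as the root mean square difference over 667 entries. miR-125b-5p had the closest followers, miR-146b-5p (0.12), miR-191-5p (0.12) and miR-93-5p (0.15), against a median of 1.06 over all entries. For miR-99a-5p they were miR-181a-5p (0.20), miR-140-3p (0.21) and miR-532-5p (0.21), for miR-99b-5p miR-103-3p (0.19), miR-501-3p (0.20) and miR-181b-5p (0.21), and for miR-125a-5p let-7f-5p (0.23), miR-103-3p (0.25) and miR-328-3p (0.26). miR-100-5p had none so close, with miR-1249-3p (0.31) first. Among the members the closest pair was miR-99b-5p with miR-125a-5p (0.19), the cluster mates on chromosome 17, followed by miR-99b-5p with miR-125b-5p (0.31) and miR-99a-5p with miR-125b-5p (0.31). All these points share the library scaling.

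Other gene groups moved beside the members. All 5 microglia and myeloid markers were called lower in TG Me-X04+ against either other group. This stands beside 8.57% of all entries called lower against TG Me-X04- and 11.7% against WT. Among the 59 abundant entries these shares were 78% and 81.4%. Of the 6 neuronal markers (miR-124-3p, miR-9-5p, miR-128-3p, miR-138-5p, miR-218-5p and miR-129-5p), 3 were lower and 1 higher against TG Me-X04-, and their summed level was 1706 to 4047 CPM for WT, 1424 to 2981 CPM for TG Me-X04- and 699 to 1064 CPM for TG Me-X04+. Scaled to library size the summed neuronal markers overlapped in all groups, while the myeloid sum of 89573 to 102537 in TG Me-X04+ still lay below 124864 to 156531 in WT. Against TG Me-X04-, 1 of the 3 oligodendrocyte markers was lower, and of the 4 endothelial and mural, 3 erythroid and 1 lymphocyte markers 0 were called. Against WT, 4 neuronal markers and 1 oligodendrocyte marker were lower, and no erythroid or lymphocyte marker was called. There miR-126a-3p was called lower (-1.55), and miR-145a-5p of mural cells, at 0 in every WT library, higher (6.52). The part of other cells in the members' levels was not tested. Fragments of the host gene Mir99ahg were counted for 2 transcripts, with at most 26 UMIs in a library and in 3 or fewer libraries of any group, too few to compare.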

How the data were processed

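RNA of sorted microglia was made into QIAseq miRNA libraries with UMIs. Reads were assigned by the provider's service, and the authors deposited raw counts, of reads and of UMIs, for each entry. The submitters' processing notes name GRCm38 and edgeR 3.24.3. No UMI count lay between 0 and 10. Groups and ages came from the labels. Here the UMI counts of all 15 libraries were fitted at once with edgeR 4.0.16 (R 4.3.3) without a block, using filterByExpr, TMM, the quasi-likelihood F-test and Benjamini-Hochberg adjustment over 1435 entries, with calls at an adjusted p under 0.05 and a log2 fold change of at least 0.7 in size. SEs are those the test statistic implies. 1 row naming no entry was left out. Loci came from GENCODE vM21 and sequences from RefSeq.

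The members, lists and tests were chosen with earlier results of these data known. The entries named were the members, their other arms, the let-7 arms of the clusters, other miRNAs of the same seeds, host transcripts, markers of cell types and 3 closest followers per member. Alternatives were other scalings, DESeq2 1.42.0, other filters, read counts, miRNA rows alone, 2 groups alone, each library left out in turn and a replicate block. A covariate for runs of neighbouring mouse numbers (not a batch that the labels name) and the omission of WT replicates 4 and 5 together were added once the data had been seen. TG libraries of the same number, unlike WT ones, are paired by mouse, per the labels. Their deviations from the group means correlated from -0.05 to 0.55, against -0.54 to 0.37 between different mice. No library was a duplicate of another in its group, since in all 30 within-group pairs the counts differed beyond sampling noise (chi-square over its degrees of freedom, 3.79 to 26.8). Pairs across groups were not examined. UMI counts carry counting error, and intervals cover that alone. The scripts were tested on simulated data.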

Additional observations from a re-analysis of the deposited data

Results flagged for a closer look

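In 3 of the 33 groups of 5 values examined, the highest or lowest library stood apart from the rest by Dixon's criterion for 5 samples, a critical value of 0.71 that chance passes in about 1 of 20 groups. miR-99a-5p was at 9063 CPM in WT replicate 5, against 2672 to 3903 CPM in the other WT libraries. It was at 4531 CPM in TG Me-X04- replicate 1, against 1887 to 2585 CPM in the other libraries of that group. Without TMM factors both libraries lay nearer to the rest of their groups. WT replicate 5 was then at 5005 CPM against 2168 to 3233 CPM, and TG Me-X04- replicate 1 at 2611 CPM against 1800 to 2243 CPM. The ratio of miR-125b-5p to miR-100-5p was 110 in TG Me-X04+ replicate 3, against 280 to 331 in the others, and that library held 40 UMIs of miR-100-5p (exact Poisson 95% interval 28.6 to 54.5).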

How the results depend on the processing

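Of 325 alternative values of the members' fold changes, 297 kept direction and side of the threshold, 18 were weaker, 4 stronger and 3 changed sign with a call in either fit. Another 3 changed sign with no call in either fit, miR-125a-5p (0.13) and miR-100-5p (0.60) scaled to library size and miR-100-5p (0.39) with the total of all RNA classes, each against TG Me-X04-. Such uncalled sign changes also numbered 53 of 774 alternative values for the other arms and 23 of 234 for the ratios. Scaled to library size, 0 members were called in TG Me-X04+ against TG Me-X04- and 1 against WT, and with the total of all RNA classes as library size 0 and 2. All entries called were then 500 and 672, and 435 and 677. In TG Me-X04- against WT the count of all entries called was 4 without a filter. It was 1 with 10 or more UMIs in every library, with read counts and with the covariate for mouse numbers. The replicate block also gave 1, but with WT it joins unrelated mice. The fold changes that were called in either fit and changed sign were, scaled to library size against TG Me-X04-, miR-99b-5p (0.11), miR-99a-3p (1.09), miR-99b-3p (0.87) and miR-125b-2-3p (0.18), and against WT miR-100-5p (0.37), miR-99a-3p (0.95), miR-99b-3p (0.94), let-7a-5p (0.18), let-7c-5p (0.19) and let-7a-2-3p (1.22). With the total of all RNA classes they were miR-99a-3p against TG Me-X04- (0.89), and against WT miR-100-5p (0.22), miR-99a-3p (0.85), miR-99b-3p (0.82), let-7a-5p (0.087), let-7c-5p (0.093) and let-7a-2-3p (1.097). The scaling itself shifts all entries, and the cause of the difference between scalings was not tested. miR-125a-5p was also called against TG Me-X04- by DESeq2 (adjusted p = 0.0240), with 10 or more UMIs in every library (0.0447) and without TG Me-X04- replicate 3 (0.0152), and was lost against WT with the covariate for mouse numbers (-0.9998, edgeR adjusted p = 0.0581).

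Leaving out each library in turn, members called ranged from 2 to 4 against TG Me-X04-, 0 to 0 in TG Me-X04- against WT and 5 to 5 in TG Me-X04+ against WT, and all entries called from 104 to 165, 0 to 2 and 191 to 219. The log2 ratio of miR-125a-5p to miR-125b-5p ranged from 0.51 to 0.64 against TG Me-X04- and from 0.50 to 0.64 against WT, and that of miR-99a-5p to miR-99b-5p against WT from -0.78 to -0.57. Those of miR-125b-5p to miR-100-5p ranged from -1.14 to -0.66 and from -1.04 to -0.59, and that of miR-99a-5p to miR-100-5p against TG Me-X04- from -0.98 to -0.62. The adjusted p of these 6 crossed 0.05 in some of these sets. With fewer libraries, the exact permutation test has fewer arrangements. With read counts the 3 ratios that had passed were 0.58, 0.58 and -0.71 and did not pass, and without WT replicates 4 and 5 the 2 against WT were 0.66 and -0.53. With the replicate block (sign-flip within mice) miR-125a-5p to miR-125b-5p was 0.58 (adjusted p = 0.0938 by the exact sign-flip test), above 0.05 by construction. The replicate block called 4 members against TG Me-X04-. WT libraries came from other mice, so with WT the block joins unrelated mice of the same replicate number and tests no pairing. There it called 0 members in TG Me-X04- against WT and 5 in TG Me-X04+ against WT. In the last of these let-7a-5p and let-7c-5p were no longer called (-1.12 and -1.097). The UMI counts behind miR-100-5p were 11 to 56 a library, and depth as a limit on its calls was not tested.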
